A study of Mus musculus with 9 samples.

Results

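The carbonic anhydrase genes were examined in RNA sequencing data from mouse embryonic fibroblasts (MEFs) and from chemically induced extraembryonic endoderm-like cells (ciXEN cells) derived from them. The genes were chosen by name and by being listed in the deposited table, with their levels in these libraries already known, so their differences between groups are given as a description beside those of all genes. Of the 10 genes named (Car2, Car3, Car4, Car5b, Car7, Car8, Car9, Car12, Car13 and Car14), 9 were listed, out of 13775 genes in all, and Car3 was not analysed here. The table also lists Car5a, Car6 and Car11, which do not belong to the set and are described apart.

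The 9 libraries fell into 3 groups of 3. The MEFs came from embryos of CF-1 mice and were sequenced at passage 3, after growth in serum-containing fibroblast medium without chemicals. The ciXEN cells were lines 1-1, 2-1 and 3-3, each expanded from a clone picked by hand from chemically treated CF-1 MEFs, and each line was sequenced at passage 5 (ciXEN p5) and again at passage 30 (ciXEN p30). All ciXEN cells were kept on Matrigel in a KnockOut DMEM-based medium that held bFGF, VPA, CHIR99021, RepSox, Parnate, forskolin, AM580 and EPZ004777, so the effects of cell type and of medium cannot be told apart. Ribosomal RNA was removed and stranded libraries were sequenced. Levels are FPKM, a fragment count divided by transcript length and by library size, summed over the listed transcripts of a gene, and since FPKM is per length, levels may be compared between genes. Nothing says that the 3 MEF libraries came from separate cultures, and p-values here measure only the spread between these libraries. The 6 ciXEN libraries come from 3 lines, and the main tests treat them as separate. In bulk RNA, fewer cells of a type and less RNA per cell cannot be told apart.

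Carbonic anhydrases catalyse the interconversion of carbon dioxide and water with bicarbonate and a proton, and most carry a zinc ion held by histidines in the active site. They differ chiefly in where they act. Car2, Car7 and Car13 are cytosolic, Car5b is mitochondrial, Car4 is tethered to the outer face of the plasma membrane by a lipid anchor, and Car9, Car12 and Car14 span the membrane with the catalytic domain outside. Car8 is a related protein without classical carbonic anhydrase activity. Fluid-transporting and endoderm-derived epithelia are known for cytosolic and surface enzymes that work alongside bicarbonate and proton transporters.

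The coding sequence around the zinc site shows what the listed genes share and where Car8 departs. The windows of 18 bases below were taken from the GENCODE M21 transcripts (GRCm38, coding strand). Capitals mark the codons at the positions of the first pair of zinc-binding histidines of Car2.
Car2: tttCACtttCACtggggc
Car13: ttcCATttgCACtggggg
Car7: ctcCACttcCACtggggc
Car5b: tttCATtttCATtgggga
Car4: ttgCACctgCACtggtca
Car9: ttgCATctaCACtgggga
Car12: ctgCACttgCACtggggg
Car14: ctcCACctgCACtggggt
Car8: gttAGAtttCACtgggga
In 8 of the 9 genes both codons read as histidine (cac or cat). In Car8 the first of the pair is an arginine codon, and the second is a histidine codon. Between the encoded proteins, Car13 (57.6%), Car7 (55.4%) and Car5b (53.2%) were the most similar to Car2 in aligned residues, and Car4 was the least (36.5%).

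The 2 groups of cells used different members of the family. Car4 and Car2 were far higher in ciXEN cells, and Car12 was higher to a smaller extent. Car13 and Car5b were lower. The sum of the 9 genes was 18.6 ± 2.80 FPKM in MEFs, 301 ± 39.9 in ciXEN p5 and 253 ± 88.0 in ciXEN p30 (SD, n = 3 each).

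**Figure D1:**
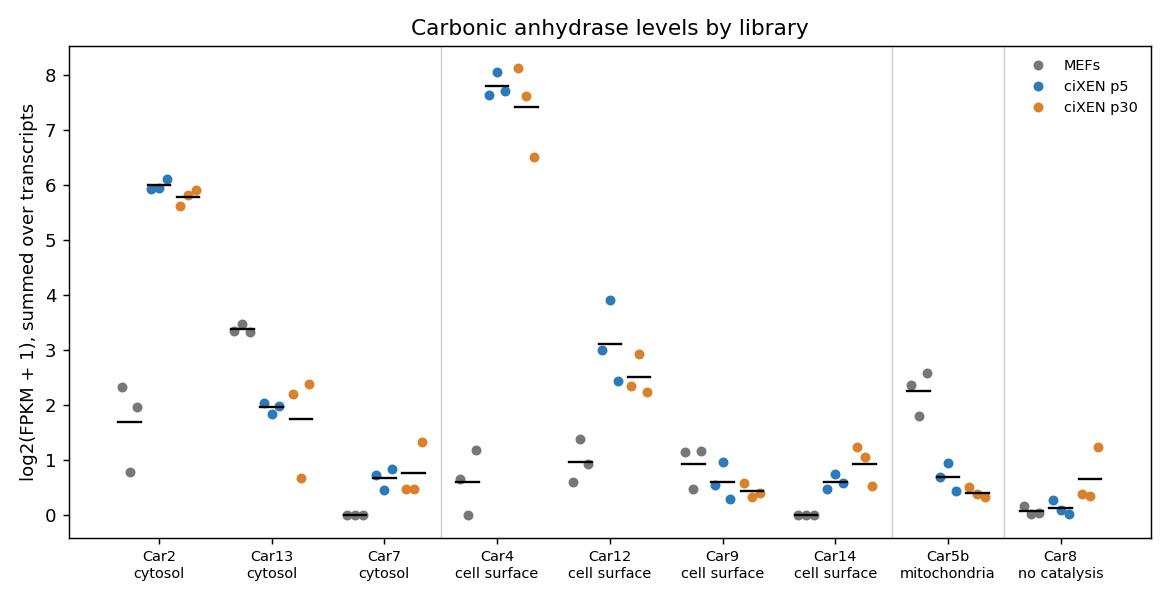
Level of each of the 9 listed carbonic anhydrase genes in each library, as log2(FPKM + 1), grouped by where the enzyme acts. Points are libraries and black bars are group means (n = 3). Car4, Car2 and Car12 lie higher in all 6 ciXEN libraries than in any MEF library, and Car13 and Car5b lie lower.

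Of the 9 listed genes, 6 averaged 0.5 FPKM or more across the 9 libraries and were tested (Car2, Car4, Car5b, Car9, Car12 and Car13). Car4 and Car12 reach this level only through the ciXEN libraries and Car5b only through the MEF libraries, so their passing the filter is not independent of their difference. Car2 and Car13 would pass on the values of either kind of cell alone. Tests are from limma on log2(FPKM + 1), fitted over 12436 genes, with Benjamini-Hochberg adjustment over all of them and a threshold of 0.05. In ciXEN cells against MEFs, 3 of the 6 were higher and 2 lower, beside 42.4% of all tested genes higher and 27.6% lower. The same 5 genes were called, in the same directions, in ciXEN p5 against MEFs (40.7% of all genes higher, 25.7% lower) and in ciXEN p30 against MEFs (38.2% higher, 26.6% lower). These comparisons share the MEF libraries. With so many genes changed, the number of family members called is near the background. The median log2 fold change of the 6 genes was 0.72, beside 0.20 for all genes tested.

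Among the surface enzymes, Car4 showed the widest difference of the family. Car4 (ENSMUSG00000000805, GRCm38 chr11:84957786-84966044, plus strand) stood at 0.583, 0 and 1.27 FPKM in MEF libraries 1, 2 and 3. It was at 198, 265 and 209 FPKM in ciXEN p5 and at 278, 196 and 90.8 FPKM in ciXEN p30, in the order of lines 1-1, 2-1 and 3-3. The groups did not overlap, and the lowest ciXEN library, line 3-3 at p30, was still above every MEF library. The log2 fold change in ciXEN cells was 7.0 ± 0.35 (SE), with a limma adjusted p of 1.4e-07. It was 7.19 ± 0.40 at p5 and 6.80 ± 0.40 at p30. The log2(FPKM + 1) scale understates the change of a gene this low in MEFs.

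Nearly all Car4 RNA was assigned to one transcript. Car4-201, which runs from the gene's annotated start, held 98.6 to 99.4% of the gene's FPKM in the ciXEN libraries. Car4-202, which starts within the gene at position 84964347, was listed at 0 in every MEF library and at 0.882 to 3.24 FPKM in ciXEN cells.

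MEF libraries 1 and 3 held low levels of many genes that are abundant in ciXEN cells. For 28 other genes, which averaged 100 FPKM or more in ciXEN cells and exceeded the lowest MEF library by 50 times or more, the median level in the MEF libraries was 0.772%, 0.0873% and 0.801% of the ciXEN mean. Car4 stood at 0.283%, 0% and 0.618% of its ciXEN mean in the same libraries. Car2 stood at 6.92%, 1.23% and 4.96%. Both genes were thus lowest in MEF library 2, and Car2 was above the median of those genes in all 3 libraries. The part of this low signal in the MEF values of Car4 and Car2 was not tested.

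Car12 was the second surface enzyme to rise. Car12 (ENSMUSG00000032373, chr9:66713686-66766845, plus strand) was at 0.517, 1.61 and 0.908 FPKM in MEFs, at 6.99, 14.1 and 4.41 FPKM in ciXEN p5, and at 4.12, 6.67 and 3.72 FPKM in ciXEN p30. All ciXEN libraries were above all MEF libraries, and line 2-1 was the highest at both passages. The log2 fold change was 1.84 ± 0.32 (limma adjusted p = 6.3e-04), with 2.14 ± 0.37 at p5 and 1.54 ± 0.37 at p30.

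The listed Car12 transcripts differ by a short coding exon, printed here because it separates them. The exon lies at chr9:66762403-66762432 (GRCm38, plus strand, 30 bases, all coding, no capitals set) and is present in Car12-201 and absent from Car12-202.
Car12-201 exon: gactgcttaccaacacaggactgagtttgg
Car12-201 thus has 354 codons and Car12-202 has 344. Car12-202 was listed at 0 in MEF libraries 1 and 3 and in line 1-1 at p30, and held 54.6 to 79.8% of the gene's FPKM in the other 5 ciXEN libraries and 86.6% in MEF library 2. The share of the pair therefore moved from 0 to a majority between libraries of one group. One alternative took the transcript with the higher mean over the 9 libraries, here Car12-202, in place of the sum. The Car12 difference at p30 was then 1.04 and no longer passed (limma adjusted p = 0.21). In line 1-1 at p30, where Car12-202 was listed at 0, Car12-201 was at 4.12 FPKM.

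**Figure D2:**
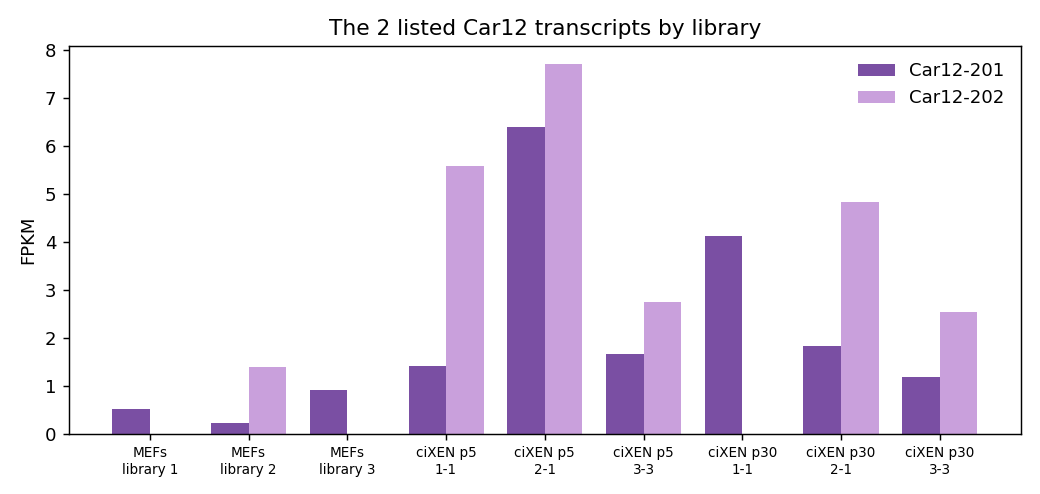
FPKM of the 2 listed Car12 transcripts in each library. Car12-202, which lacks the 30-base exon, is the higher in 5 of the 6 ciXEN libraries and is listed at 0 in line 1-1 at p30 and in MEF libraries 1 and 3.

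Car9, the family member known best as a target of hypoxia-inducible factors, stayed low. Car9 (ENSMUSG00000028463, chr4:43506966-43513729, plus strand) was at 1.22, 0.395 and 1.24 FPKM in MEFs, at 0.461, 0.953 and 0.227 FPKM in ciXEN p5, and at 0.499, 0.260 and 0.328 FPKM in ciXEN p30. The groups overlapped through MEF library 2. The log2 difference was -0.41 ± 0.20 and did not pass (limma adjusted p = 0.097). Without MEF library 2 it was -0.63 and passed (adjusted p = 0.014). Without line 2-1 at p5 it was -0.50 and also passed (adjusted p = 0.046), so the call turns on single libraries of either group.

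The Car9 promoter is shown because it carries a match to the hypoxia response core close to the start. The window runs from 250 bases before to 50 bases after the RefSeq start (GRCm38.p6, chr4:43506776-43507075, plus strand). Capitals mark the match, ACGTG or GCGTG on either strand, here on the minus strand.
Car9 promoter: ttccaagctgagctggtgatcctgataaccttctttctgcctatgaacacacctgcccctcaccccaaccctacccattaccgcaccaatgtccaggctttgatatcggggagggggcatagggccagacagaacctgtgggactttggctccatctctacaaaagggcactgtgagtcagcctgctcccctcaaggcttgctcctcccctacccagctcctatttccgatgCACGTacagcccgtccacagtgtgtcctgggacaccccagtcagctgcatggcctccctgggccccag
The match begins at position -18 from the start, and 43.8% of 32851 RefSeq promoters of this length hold at least one such match. Promoters were found for 6 of the 9 listed genes. Car4 held a match at position 2 and Car14 at position -7, Car5b held 5 and Car12 none. Car7 has 3 promoter windows, with 2, 0 and 1 matches. A match is a description of these letters and not of a bound site.

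Car14 (ENSMUSG00000038526, chr3:95897768-95904691, minus strand) was below the filter. It was listed at 0 in all 3 MEF libraries, at 0.392, 0.678 and 0.50 FPKM in ciXEN p5 and at 1.37, 1.08 and 0.442 FPKM in ciXEN p30. Every ciXEN library was above the MEF libraries, and with the filter removed limma gave an adjusted p of 0.0014. The gene overlaps Aph1a on the opposite strand by 521 bases, and Aph1a had a mean of 4.46 FPKM.

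In the cytosol, Car2 replaced Car13 as the more abundant enzyme RNA. Car2 (ENSMUSG00000027562, chr3:14886273-14900770, plus strand), the widespread high-activity form, was at 4.06, 0.724 and 2.92 FPKM in MEFs, at 59.9, 61.1 and 68.6 FPKM in ciXEN p5, and at 48.4, 55.4 and 59.0 FPKM in ciXEN p30. The groups were far apart and the ciXEN libraries were close to each other. The log2 fold change was 4.19 ± 0.28 (limma adjusted p = 1.1e-06), with 4.3 ± 0.33 at p5 and 4.08 ± 0.33 at p30. Car2-201 held at least 92.0% of the gene's FPKM in each ciXEN library. Car2-202, which starts upstream at position 14886273 and ends within the gene at 14895134, was at 3.06 to 4.12 FPKM in ciXEN cells and at 0.041, 0 and 0 FPKM in MEFs.

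Car13 (ENSMUSG00000027555, chr3:14641727-14663002, plus strand) was the most abundant member in MEFs, at 9.22, 10.1 and 9.12 FPKM. It was at 3.13, 2.61 and 2.99 FPKM in ciXEN p5 and at 3.60, 0.607 and 4.21 FPKM in ciXEN p30. Every ciXEN library was below every MEF library, and line 2-1 at p30 was the lowest. The log2 fold change was -1.53 ± 0.32 (limma adjusted p = 0.0022). Car2 made up 30.6%, 6.68% and 24.2% of the FPKM of Car2 and Car13 together in the MEF libraries, against 93.1 to 98.9% in the ciXEN libraries.

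Car2 and Car13 are neighbours on chromosome 3. Their cluster spans 259044 bases and runs in the order Car13, Car1, Car3 and Car2, with 13749 bases between Car3 and Car2. Car1 and Car3 were not analysed here. The pair thus lies at opposite ends of the cluster and moved in opposite directions.

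Car7 (ENSMUSG00000031883, chromosome 8), a cytosolic form known mainly from brain and muscle, was listed at 0 in the 3 MEF libraries. It was at 0.658, 0.377 and 0.797 FPKM in ciXEN p5 and at 0.397, 0.401 and 1.51 FPKM in ciXEN p30, with the highest value in line 3-3 at p30. It was below the filter, and without the filter limma gave an adjusted p of 0.0077.

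The mitochondrial enzyme Car5b, which supplies bicarbonate inside the organelle, fell. Car5b (ENSMUSG00000031373, chrX:163976822-164027997, minus strand) was at 4.15, 2.52 and 5.03 FPKM in MEFs, at 0.616, 0.929 and 0.364 FPKM in ciXEN p5 and at 0.425, 0.303 and 0.262 FPKM in ciXEN p30. The groups did not overlap, and the MEF mean was 8.08 times the ciXEN mean. The log2 fold change was -1.70 ± 0.19 (limma adjusted p = 3.0e-05), with -1.56 ± 0.22 at p5 and -1.85 ± 0.22 at p30. Car5b entered the test through its MEF level, since its ciXEN mean was 0.483 FPKM.

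Macrophage markers were present in the MEF libraries. Their 7 listed genes of 8 summed to 84.9 to 151 FPKM in MEFs and to 1.48 to 3.43 FPKM in ciXEN cells, and Ptprc was not analysed here. The part of such cells in the MEF levels of Car13 and Car5b was not tested.

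Car8 (ENSMUSG00000041261, chr4:8143362-8239041, minus strand), whose product binds an inositol trisphosphate receptor, was at 0.124, 0.0231 and 0.0359 FPKM in MEFs, at 0.212, 0.0759 and 0.0193 FPKM in ciXEN p5 and at 0.305, 0.285 and 1.36 FPKM in ciXEN p30. Only line 3-3 at p30 exceeded 1 FPKM. The gene was below the filter, and without the filter ciXEN cells against MEFs gave a limma adjusted p of 0.16, while ciXEN p30 against MEFs gave 0.041.

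**Figure D3:**
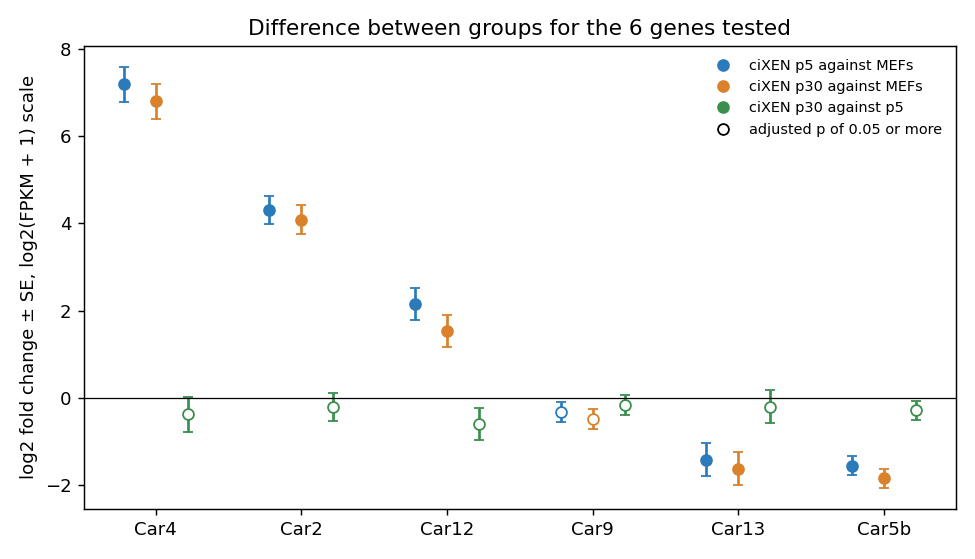
Log2 fold change with its SE, on the log2(FPKM + 1) scale, for the 6 genes tested in each comparison. Filled points passed an adjusted p of 0.05 in limma. Car4 lies highest, at 7.19 and 6.80 against MEFs, and all 6 points for ciXEN p30 against p5 are open and lie from -0.61 to -0.16.

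The order of levels differed between the groups. In MEFs, Car13 (9.49 ± 0.55 FPKM, SD, n = 3) led Car5b (3.90 ± 1.27), and no library of one overlapped the other. Car5b and Car2 (2.57 ± 1.70) overlapped, as did Car2, Car12 (1.01 ± 0.56), Car9 (0.950 ± 0.480) and Car4 (0.619 ± 0.638), each with the next in the order. In ciXEN cells, Car4 (206 ± 66.6 FPKM, SD, n = 6 libraries of 3 lines) led Car2 (58.7 ± 6.69). Car2 led Car12 (6.67 ± 3.89), and neighbours in this order did not overlap. Car12 and Car13 (2.86 ± 1.23) overlapped, and Car13 reached the next gene through line 2-1 at p30. Below them Car14, Car7, Car5b, Car9 and Car8 had means of 0.376 to 0.743 FPKM and overlapped each other.

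By place in the cell, the cytosolic enzymes made up 58.7 to 70.4% of the FPKM of the 9 genes in the MEF libraries and 15.5 to 40.1% in the ciXEN libraries. The surface enzymes made up 11.6 to 16.7% in MEFs and 58.9 to 84.3% in ciXEN cells. The mitochondrial enzyme made up 16.4 to 24.5% in MEFs and 0.116 to 0.268% in ciXEN cells. The cytosolic sum itself was higher in ciXEN cells, at 62.3 ± 7.03 FPKM (SD, n = 6) against 12.1 ± 1.22 (SD, n = 3), so its smaller share accompanied a larger level. These shares are relative to 9 genes and were not tested.

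**Figure D4:**
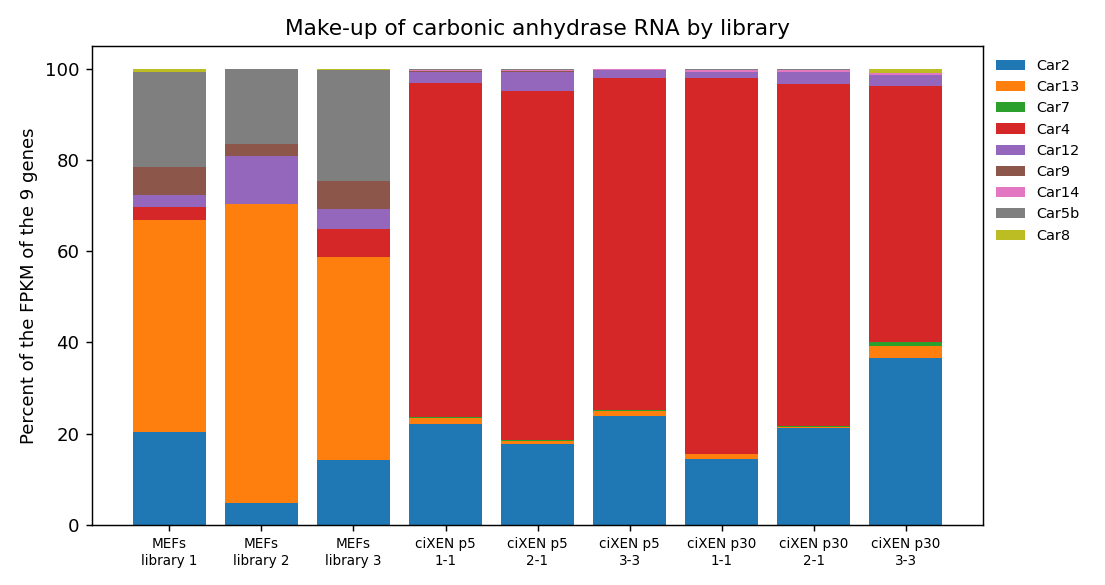
Share of each gene in the FPKM of the 9 listed carbonic anhydrase genes, by library. Car13 makes up 44.5 to 65.7% in MEFs, and Car4 makes up 56.2 to 82.5% in ciXEN cells, with its lowest share in line 3-3 at p30.

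Between passages, none of the 6 tested genes passed in ciXEN p30 against p5 (limma, and none at an unadjusted p under 0.05), beside 3.08% of all genes higher and 5.61% lower. The split of the calls over all genes depends on scaling, since 35.4% of the calls were higher as deposited and 58.2% after equal medians. The log2 difference was -0.38 for Car4, with a 95% interval from -1.29 to 0.52, and -0.22 for Car2, with an interval from -0.95 to 0.52. For Car12 it was -0.61, with an interval from -1.44 to 0.23. These intervals are wide enough to hold changes of more than 1 on the log2 scale for Car4 and Car12.

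Car4 and Car13 did not keep 1 direction between passages over the lines. Each line has 1 library per passage, so differences between lines cannot be told from the spread between libraries. Within lines, Car4 on the log2(FPKM + 1) scale was 0.49 higher at p30 in line 1-1, and lower in lines 2-1 (-0.44) and 3-3 (-1.20). Car13 was lower in line 2-1 (-1.17) and higher in lines 1-1 (0.16) and 3-3 (0.39). In lines 1-1, 2-1 and 3-3, Car2 differed by -0.30, -0.14 and -0.21, and Car5b by -0.18, -0.57 and -0.11. Car12 differed by -0.64, -0.98 and -0.20, and Car8 by 0.11, 0.26 and 1.21. The share of all genes that kept 1 direction over the lines was not computed, so no passage trend is read from these values. For Car2 the p5 and p30 libraries did not overlap, which held for 1 of the 6 tested genes and for 28.8% of all genes tested. In ciXEN cells against MEFs, libraries did not overlap for 5 of the 6, beside 61.3% of all genes.

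Line 3-3 at p30 combined the lowest Car4 of the ciXEN libraries with the highest Car7, Car8 and Car13 among them. Its family sum was 162 FPKM, against 260 to 346 FPKM in the other 5 ciXEN libraries. Its part in the p30 mean of Car4 can be read from the fit without it, in which Car4 differed from p5 by 0.07 in place of -0.38.

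Of the carbonic anhydrase genes outside the set, Car6 differed in the opposite direction to Car4. Car6, which encodes a secreted salivary form, was at 5.40, 7.60 and 3.88 FPKM in MEFs and listed at 0 in all 6 ciXEN libraries (limma adjusted p = 6.6e-07), and it passed the filter only through the MEFs. The listed transcript is Car6-202, which starts at position 150198470 on chromosome 4 (GRCm38, minus strand), downstream of the gene's annotated start at 150201332. Car11, a related protein, was at 0.841, 0.804 and 0.776 FPKM in MEFs and at 0 to 0.767 FPKM in ciXEN cells. Its window lacks both histidine codons seen in the other genes. Car5a, the liver mitochondrial form, stayed at 0.929 FPKM or less in every library. Its means were 0.0171 FPKM in MEFs, 0.186 in ciXEN p5 and 0.696 in ciXEN p30, where Car5b averaged 0.330. Its groups overlapped through line 2-1 at p5. Car5a and Car11 were below the filter. Without the filter, ciXEN cells against MEFs gave limma adjusted p-values of 0.026 for Car5a (higher) and 0.0020 for Car11 (lower). For Car5a this was 0.32 at p5 and 0.0073 at p30.

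Genes with the most similar pattern were sought for the 3 members with the largest difference on the log2(FPKM + 1) scale, as the smallest root mean square difference of centred log2(FPKM + 1) over the 9 libraries among 12435 other genes. For Car4 these were Podxl (0.36), L1td1 (0.38) and Myl3 (0.40). Podxl, a sialomucin of apical membranes, was at means of 0.828, 307 and 259 FPKM in MEFs, ciXEN p5 and ciXEN p30. For Car2 they were Scube2 (0.31), Dock8 (0.32) and Adora1 (0.35). For Car12, Entpd2 (0.22) and Barx2 (0.25) are given. The points share the 9 libraries and 2 widely separated kinds of cell, so the likeness is a description. With a pseudocount of 0.1, Car5b (-2.82) differed more than Car12 (2.57) and would take its place.

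Partner genes of the pathway were examined from whole lists, with every tested gene counted. The filter averages 6 ciXEN and 3 MEF libraries, so genes high only in MEFs pass it less readily. Of the listed partner genes below it, Slc26a7, Slc16a7, Hvcn1 and Aqp5 were higher in every MEF library than in any ciXEN library. Slc4a11, Slc9a2, Slc9a3 and Acacb overlapped between the groups. Of the bicarbonate transporters, 10 of 18 were listed and 8 tested, and 4 were higher and 1 lower in ciXEN cells, where 42.4% of all tested genes were higher and 27.6% lower. The list's median log2 fold change was 0.51, beside 0.20 for all genes. Slc26a2, a sulphate transporter of the same family as chloride-bicarbonate exchangers, rose by 2.84 ± 0.18 on the log2 scale, from 5.80 ± 0.909 to 48.3 ± 11.4 FPKM. Slc26a9, an anion channel, rose by 1.06 ± 0.30, and Slc4a4, a sodium-bicarbonate cotransporter, by 0.86 ± 0.15. Slc4a7, another sodium-bicarbonate cotransporter, fell by 0.44 ± 0.17, and its libraries overlapped between the groups. At p30 alone neither Slc26a9 (limma adjusted p = 0.058) nor Slc4a7 (adjusted p = 0.41) passed against MEFs. Slc26a9 was low throughout, at 0 to 0.210 FPKM in MEFs and 0.292 to 3.48 FPKM in ciXEN cells, and passed the filter only through the latter. Between passages, Slc4a2 and Slc4a4 were lower at p30 (limma adjusted p = 0.042 and 0.022) and none of the 8 was higher, beside 5.61% of all genes lower and 3.08% higher. Paired by line in a fit of the ciXEN libraries alone, neither passed (adjusted p = 0.20 and 0.15). No gene of the whole table passed in that fit, so it cannot decide for these genes. With a term for the replicate number in a fit of all libraries, Slc4a4 passed (adjusted p = 0.028) and Slc4a2 did not (adjusted p = 0.072).

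Of 16 genes that export protons or lactate, or help to, 15 were listed and 11 tested, and 4 rose and 2 fell, against 42.4% and 27.6% of all genes. The proton-linked monocarboxylate carriers went opposite ways. Slc16a1 was at 11.1 to 12.8 FPKM in MEFs and at 46.1 to 78.8 in ciXEN cells (log2 fold change 2.22 ± 0.08, limma adjusted p = 1.9e-08). Slc16a3, the form of glycolytic cells, was at 12.4 to 21.4 FPKM in MEFs and at 0.714 to 6.52 in ciXEN cells (-2.75 ± 0.35, adjusted p = 7.8e-05). Slc9a3r1, a scaffold for sodium-proton exchangers at apical membranes, rose by 2.13 ± 0.13. Slc9a9, an endosomal exchanger, fell by 2.40 ± 0.16. The list's median was 0.19. Between passages, Slc16a1 (0.55 ± 0.09) and Emb (2.44 ± 0.45) were higher at p30 (limma adjusted p = 0.0092 and 0.013). None of the 11 was lower, beside 3.08% of all genes higher and 5.61% lower. Against MEFs, Emb was lower at p5 (adjusted p = 0.0022) and did not pass at p30 (adjusted p = 0.57).

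Of 10 genes that encode or serve carboxylases using bicarbonate, 8 were listed and 7 tested. Of these 3 were higher and 2 lower, which is near the 42.4% and 27.6% of all genes, and the median was 0.24. Pcca, a subunit of mitochondrial propionyl-CoA carboxylase, rose by 0.99 ± 0.10, while Pccb, its partner subunit, fell by 0.72 ± 0.21. Mccc1 and Mccc2, the subunits of methylcrotonoyl-CoA carboxylase, rose by 0.58 ± 0.20 and 0.55 ± 0.10. Acaca, the cytosolic acetyl-CoA carboxylase, fell by 0.82 ± 0.13.

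Among channels for carbon dioxide and water, 5 of 9 were listed and 4 tested, and 3 rose, where 42.4% of all tested genes did. Aqp1 did not pass (0.91 ± 0.42, limma adjusted p = 0.081). Its libraries overlapped, at 3.61 to 6.54 FPKM in MEFs and 4.39 to 17.3 FPKM in ciXEN cells. Rhag, Rhbg and Rhcg were not analysed here. Aqp8 was at 0.237, 0 and 0.400 FPKM in MEFs and at 18.7 to 143 FPKM in ciXEN cells (log2 fold change 5.44 ± 0.54). Aqp3, an aquaglyceroporin, was listed at 0 in MEFs and was at 1.65 to 14.5 FPKM in ciXEN cells. Aqp11, an intracellular aquaporin, rose by 2.67 ± 0.12. Aqp3, Aqp8 and Aqp11 passed the filter only through the ciXEN libraries, so this count is not independent of the filter. Aqp5, below the filter, averaged 0.689 FPKM in MEFs and 0.104 FPKM in ciXEN cells.

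All 17 genes of the hypoxia list were tested, and 5 rose and 7 fell, beside 42.4% and 27.6% of all genes, with a median of -0.29. Epas1, which encodes hypoxia-inducible factor 2 alpha, was at 1.02 to 3.54 FPKM in MEFs and at 288 to 411 FPKM in ciXEN cells (log2 fold change 6.63 ± 0.25, limma adjusted p = 2.3e-08). Its hydroxylases Egln1 and Egln3 rose by 2.76 ± 0.10 and 2.05 ± 0.35. Hif1a fell by 0.89 ± 0.13 and Arnt by 0.585 ± 0.097. Of the other genes of the list, Adm fell by 4.12 ± 0.58, Pgk1 by 1.43 ± 0.21 and Bnip3 by 1.12 ± 0.44. P4ha1 fell by 0.74 ± 0.16 and Ldha by 0.73 ± 0.16. Slc2a1 rose by 1.09 ± 0.18 and Kdm3a by 0.57 ± 0.11. Bnip3 did not pass at either passage alone (adjusted p = 0.055 at p5 and 0.12 at p30). Vegfa, Ndrg1, Ankrd37, Pdk1 and Vhl did not pass in ciXEN cells against MEFs. At p30 alone Vegfa was higher (0.54, limma adjusted p = 0.047) and Vhl lower (-0.48, adjusted p = 0.015). Car9 and Car12, both known as targets of these factors in other cells, thus stood beside a list that moved in both directions.

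**Figure D5:**
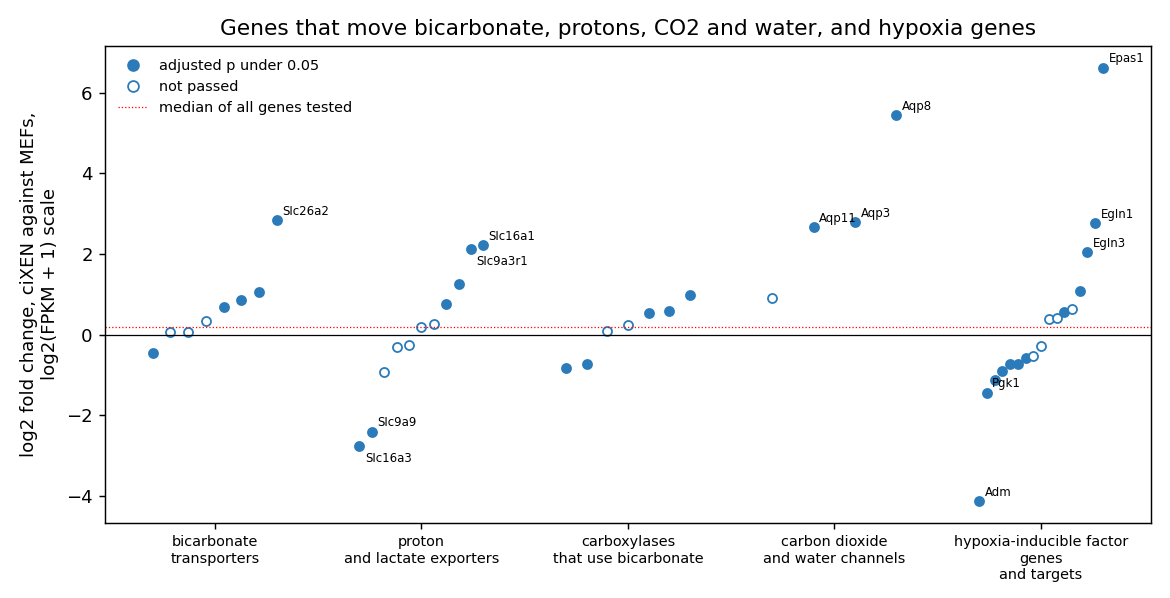
Log2 fold change in ciXEN cells against MEFs, on the log2(FPKM + 1) scale, of every tested gene of 5 lists, with genes ordered by value within a list. Filled points passed an adjusted p of 0.05, and the dotted line is the median of all genes tested (0.20). Epas1 lies at 6.63 and Adm at -4.12 in the hypoxia list, and Aqp8 at 5.44 among the channels.

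The cell types named by the labels were checked against their markers. The 6 fibroblast markers summed to 2114 to 2558 FPKM in MEFs and to 11.3 to 22.8 FPKM in ciXEN cells, and the 6 extraembryonic endoderm markers to 4.06 to 7.33 and 743 to 1088 FPKM. The epithelial markers Cdh1, Epcam and Ocln summed to 0 to 3.32 FPKM in MEFs and to 174 to 520 FPKM in ciXEN cells.

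Other cell types known for these enzymes were also checked. Of 5 endothelial markers 3 were listed, and they summed to 1.16 to 1.70 FPKM in MEFs and 6.15 to 18.6 FPKM in ciXEN cells. Tek and Cdh5 were higher in ciXEN cells (limma adjusted p = 6.0e-06 and 9.5e-06). Kdr did not pass (adjusted p = 0.14), with means of 0.560 FPKM in MEFs, 1.77 in ciXEN p5 and 0.283 in ciXEN p30. Pecam1 and Tie1 were not analysed here. Endothelial cells are known to carry Car4, and the part of such cells in its level was not tested. Of 9 erythroid markers only Klf1 was listed, at 1.31 FPKM or less, so red cells, which are rich in Car2, could not be checked by globin genes. Adipocyte markers (4 of 8 listed) summed to 17.8 to 21.4 FPKM in MEFs and to 3.43 to 8.57 FPKM in ciXEN cells. Skeletal muscle markers (5 of 10 listed) summed to 4.66 to 7.86 and 0.198 to 2.92 FPKM.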

How the data were processed

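Processing concerned total RNA from 9 mouse cell libraries. The authors deposited FPKM values per Ensembl mouse transcript. Their processing notes name cutadapt, HISAT2 2.0.5, StringTie, STAR 2.5.2b and the human build hg19, although the identifiers are mouse. For the values themselves, the aligner and the genome build are not given in the sources used here. Read counts and depth are unknown, since low FPKM values were not whole multiples of a fixed step, so no count test, interval on counts or detection floor is given. Splitting of reads among overlapping genes and related copies cannot be checked.

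Transcripts were matched to GENCODE M21 (29508 of 29599 by identifier) and summed to 13775 genes. The FPKM sum per library was 315395 to 342201. The 12436 genes that averaged 0.5 FPKM or more were fitted with limma 3.58.1 in R 4.3.3, with an intensity trend, on log2(FPKM + 1), over 3 groups without a block, and were tested on simulated data first. Tests were two-sided, with Benjamini-Hochberg adjustment over all tested genes. Residual degrees of freedom were 6 and prior degrees 3.16.

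The members and lists were chosen with earlier results of these data known. The text names every listed member, other listed carbonic anhydrases, transcripts reaching 1 FPKM, up to 3 called genes with the largest rise and 3 with the largest fall per list, and the 3 genes nearest in pattern to each of the 3 members that differed most. Hif1a, Arnt, Ldha, P4ha1, Slc2a1, Kdm3a and the hypoxia genes that did not pass fall outside this rule, as do Aqp1 and Kdr. So do the partner genes below the filter and, between passages, Slc4a2, Slc4a4, Slc16a1 and Emb. All of these were named after their values were seen. Some genes that the rule takes are not reported here. Promoters came from RefSeq (GRCm38.p6) and coding sequences from GENCODE (GRCm38).

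Labels give p5 and p30 libraries of a number to the same line, so these are paired. The correlation of their deviations from the group means was -0.00543, 0.0140 and 0.0714 for lines 1-1, 2-1 and 3-3. The MEF numbers pair with nothing. Alternatives covered the pseudocount, the filter, scaling, the trend, the block, the libraries entered and each library left out. A further one took each gene's highest transcript by mean over the 9 libraries in place of the sum. Sequences were handled in Python 3 with Biopython.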

Additional observations from a re-analysis of the deposited data

How the results depend on the processing

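In ciXEN cells against MEFs, at either passage or both, the same 5 genes (Car2, Car4, Car5b, Car12 and Car13) passed under every alternative tried, except that Car12 with its highest transcript alone missed the threshold at p30 (1.04). With that choice 4 genes passed at p30 in place of 5. Without MEF library 2, 8 of 8 tested genes passed in ciXEN cells and in ciXEN p30 against MEFs, and the added genes were Car7, Car9 and Car14, of which Car7 and Car14 then entered the test. Without the filter, 8 of 9 passed in ciXEN p30 against MEFs. Leaving out each library in turn gave 5 to 8 calls in ciXEN cells and in p30 against MEFs, 5 to 7 in p5 against MEFs, and 0 in p30 against p5.

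Between passages, 3 differences that passed nowhere changed sign when 1 library was left out. Over the libraries left out, Car4 ranged from -0.734 to 0.0685 (without line 3-3 at p30), Car9 from -0.314 to 0.0206 (without line 2-1 at p5) and Car13 from -0.521 to 0.328 (without line 2-1 at p30). With the replicate block, 5 of 6 genes passed against MEFs and 0 of 6 in p30 against p5, as without it, so the block changed no call of a carbonic anhydrase. The block joins MEF libraries to lines by number alone, so against MEFs that pairing is arbitrary. Over all genes, p30 against p5 gave 1081 calls without the block and 813 with it, 433 with only those libraries, and 0 with only those libraries and the block (2536 at an unadjusted p under 0.05). Equal medians moved the median difference of all genes at p5 against MEFs from 0.22 to 0.12. Depth is unknown, so levels near 0 FPKM (Car7, Car8, Car14) have no error of counting.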
